A study of Mus musculus with 97 samples.

Results

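The 33 libraries described here are captured regions of the brain from mice treated with doxorubicin plus docetaxel (DD), 16 of hippocampus and 17 of cortex, out of 97 libraries in the study. They were chosen by their titles: 8 of hippocampus and 9 of cortex came from mice with the human APOE3 allele knocked in, and 8 of each region from mice with the human APOE4 allele knocked in. All of these mice were older animals and all had received both drugs, doxorubicin at 3 mg/kg per week and docetaxel at 10 mg/kg per week, injected into the peritoneum 2 times per week for 2 weeks. The study asked how the APOE allele and combined chemotherapy act on inflammatory, metabolic and neuroprotective genes. The comparison below asks how hippocampus differed from cortex after DD, and whether that difference was the same in both genotypes, in vehicle and after doxorubicin plus cyclophosphamide (DC, 3 and 40 mg/kg per week). Vehicle was 50% dimethyl sulfoxide in buffered saline, and sections were 8 µm thick.

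The hippocampus and the cortex share their main neuron and glia classes but differ in the principal neurons they hold. Granule cells of the dentate gyrus and pyramidal cells of the CA fields fill the hippocampus, and layered projection neurons the cortex, each with its own transcription factors. Doxorubicin intercalates into DNA and poisons topoisomerase II, and docetaxel stabilises microtubules; neither drug crosses the blood-brain barrier well. The assay, a NanoString GeoMx mouse whole-transcriptome panel, counts tags that ultraviolet light releases from probes bound to RNA in a chosen region. In such samples fewer cells of a type and less RNA per cell cannot be told apart.

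Total counts in the DD libraries ran from 24041 to 214522 (median 49261), and a median of 36.9% of the 19962 genes stood at the lowest value in the table, 1. The negative probe, a combined probe without a target in the transcriptome that measures background, ran from 1.09 to 9.93. Few genes stood well above it: 170 genes had over 2 times the negative probe in at least 1 region, 143 in cortex and 99 in hippocampus. After the filter on low counts 50 genes remained for the test. The negative probe differed by -0.21 on the log2 scale between hippocampus and cortex (permutation p = 0.342, two-sided, 16 against 17 libraries), and the summed count of the 50 genes by -0.32 (permutation p = 0.224). Neither difference was larger than the spread between libraries. All APOE3 libraries carried the name of one plate and all APOE4 libraries that of the other, so genotype and plate cannot be told apart, and either stands as the block in the fits.

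The defining genes of both regions could not be used to check the labels, because nearly all of them stood near the background. Of 16 hippocampus markers, 0 exceeded 2 times the negative probe. The median member stood at 1.06 times the background in cortex and 1.10 times in hippocampus, and the mean of the list ran from 0.87 to 1.20 times over cortex libraries and from 0.82 to 1.37 times over hippocampus libraries. Prox1, the homeobox factor of dentate granule cells, had levels of 0.81 in cortex and 0.88 in hippocampus on that scale. The 18 cortex markers had a median of 1.07 in cortex and 1.06 in hippocampus, and the mean of that list ran from 0.89 to 1.49 over cortex libraries and from 0.85 to 1.30 over hippocampus libraries. The names hippocampus and cortex are therefore those of the labels.

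Of the 50 tested genes, 34 differed between hippocampus and cortex after DD (68%, edgeR quasi-likelihood test, Benjamini-Hochberg adjusted p under 0.05). Hippocampus was higher for 17 (34%) and lower for 17 (34%). Without APOE4 DD cortex 7, APOE3 DD cortex 2 or APOE3 DD hippocampus 4 the lower calls were 27 and the higher 16. The rises fell into a compact group: 16 genes lay between 1.34 and 1.86 on the log2 scale, and the next gene, Elof1, at 0.70. The falls were smaller and graded, from -0.24 for Ctxn1 to -0.99 for Chic2. These sizes moved when 1 library was left out. Mtch2 then ran from 1.48 to 1.90, Vmn1r189 from 0.95 to 1.37 and Chic2 from -1.35 to -0.96. For these genes the shift was larger than the SE given below. The median of the 50 genes, -0.15 with all libraries, then ran from -0.51 to -0.09. For 10 genes, all of them higher in hippocampus, no library of one region reached into the range of the other after scaling (20% of the 50). Overlap was judged under this scaling only. Its factors themselves separated the regions, at 0.54 to 0.89 in hippocampus and 1.10 to 1.51 in cortex. How far the 10 separations rest on the scaling was not tested. The labels do not tie regions to animals, so for every test here and below the p-values are too small if some animals gave more than 1 region.

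**Figure D1:**
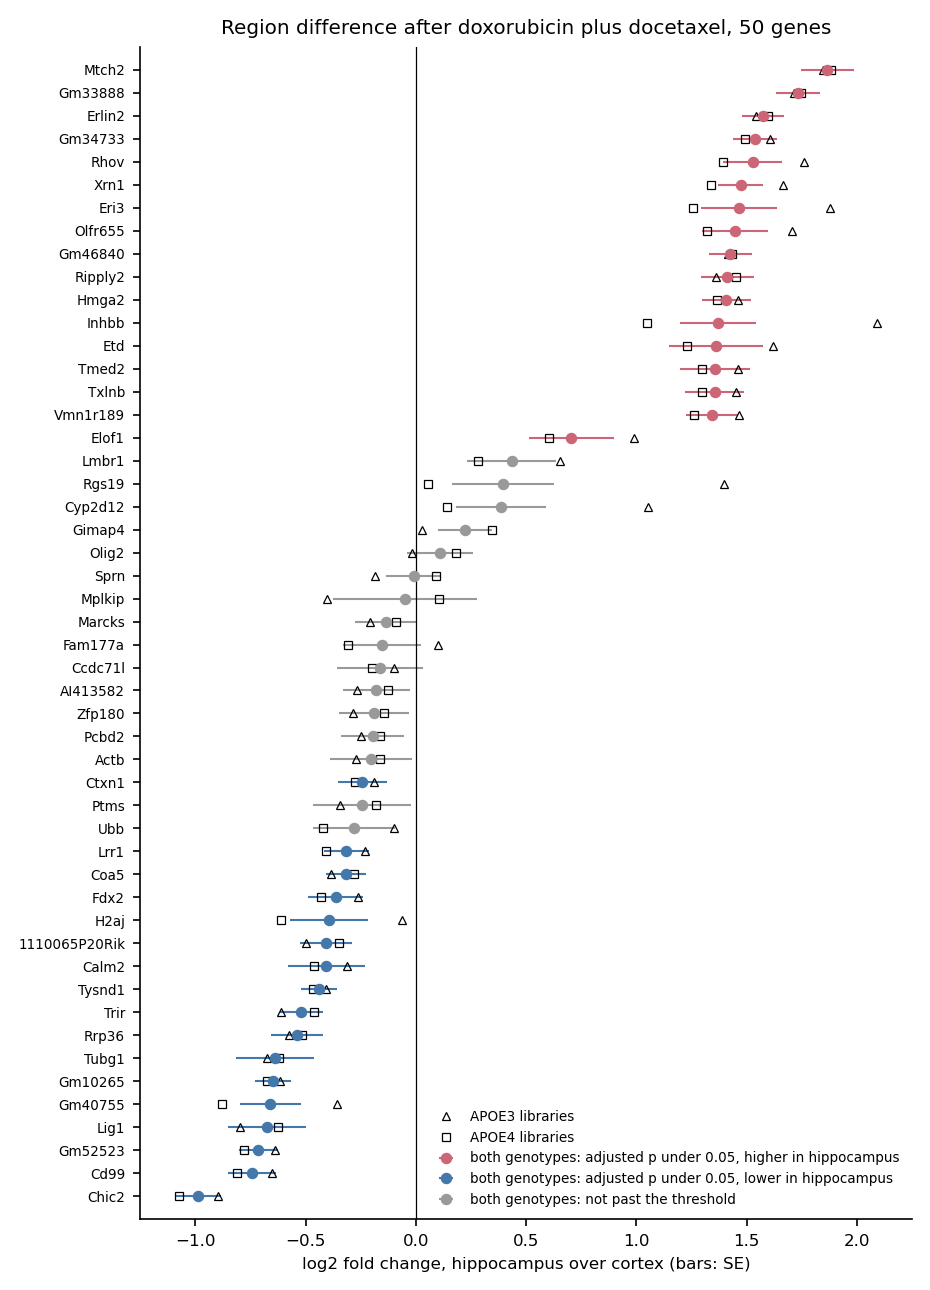
Each row is 1 of the 50 tested genes; the horizontal axis is the log2 fold change of hippocampus over cortex after DD, with filled points for both genotypes together and bars of 1 SE, triangles for APOE3 libraries and squares for APOE4 libraries. The 16 genes at the top lie between 1.34 and 1.86, apart from the other 34, which run from 0.70 for Elof1 down to -0.99 for Chic2.

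The promoters of 4 genes are printed here as examples. They are the highest and the lowest gene, and a predicted gene and a pheromone receptor gene from the group of 16. The receptor gene, Vmn1r189, had the smallest rise of that group. Each is the 250 bases before the RefSeq start in build GRCm38.p6 (mm10), written 5′ to 3′ on the strand of the gene, with CpG dinucleotides in capitals. Mtch2 is at chr2:90846905-90847154 on the plus strand, Gm33888 at chr16:89129007-89129256 on the plus strand, Vmn1r189 at chr13:22102666-22102915 on the minus strand and Chic2 at chr5:75044642-75044891 on the minus strand.
Mtch2: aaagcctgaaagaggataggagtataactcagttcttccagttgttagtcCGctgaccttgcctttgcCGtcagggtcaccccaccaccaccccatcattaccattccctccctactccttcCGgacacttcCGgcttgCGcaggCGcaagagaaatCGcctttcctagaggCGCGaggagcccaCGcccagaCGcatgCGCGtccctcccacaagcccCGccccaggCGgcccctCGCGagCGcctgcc
Gm33888: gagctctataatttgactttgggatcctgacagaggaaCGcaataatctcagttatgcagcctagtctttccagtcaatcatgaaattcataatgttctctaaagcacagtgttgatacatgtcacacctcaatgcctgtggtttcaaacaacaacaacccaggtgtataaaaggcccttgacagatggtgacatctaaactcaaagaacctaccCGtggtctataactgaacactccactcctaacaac
Vmn1r189: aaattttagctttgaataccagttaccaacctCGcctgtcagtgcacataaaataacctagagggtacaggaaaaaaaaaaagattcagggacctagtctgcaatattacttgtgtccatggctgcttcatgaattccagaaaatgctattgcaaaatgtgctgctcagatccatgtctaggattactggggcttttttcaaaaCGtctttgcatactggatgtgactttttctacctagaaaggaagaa
Chic2: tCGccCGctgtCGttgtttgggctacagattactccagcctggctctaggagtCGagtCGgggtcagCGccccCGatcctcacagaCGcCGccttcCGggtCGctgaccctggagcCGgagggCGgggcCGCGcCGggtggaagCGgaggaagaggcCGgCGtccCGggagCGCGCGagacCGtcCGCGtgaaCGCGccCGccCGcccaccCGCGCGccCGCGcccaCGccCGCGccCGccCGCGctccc

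These 250 bases hold 18 CpGs in Mtch2, 2 in Gm33888, 2 in Vmn1r189 and 41 in Chic2. Promoter windows of 300 bases were at hand for 13 of the 16 genes with the large rise and for 13 of the 17 that fell. The first set ran from 0 to 32 CpGs with a median of 12, the second from 5 to 48 with a median of 19, and all 27025 promoters in the table had a median of 7. The letters TATAAA, searched on both strands, occurred in 4 of the 13 and in 1 of the 13 windows, and in 14.2% of all promoters. The group that rose together thus holds CpG-rich and CpG-poor promoters alike.

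Mtch2, which sits in the outer membrane of mitochondria and inserts other proteins there, had the largest rise and the highest mean count of the 50 genes. It lies at chr2:90847090-90866810 (mm10). In cortex its counts ran from 229 to 2189 with a median of 949, and in hippocampus from 635 to 3951 with a median of 1187. Scaled by TMM and expressed as log2 CPM over the tested genes (CPM are counts scaled to a common library total), the 17 cortex libraries ran from 16.58 to 17.99 (median 17.19) and the 16 hippocampus libraries from 18.51 to 20.06 (median 19.02). The lowest hippocampus library stood above the highest cortex library. The difference was 3.64-fold (log2 1.86, SE 0.12, edgeR adjusted p = 6.26e-20). Mtch2 alone made up a median of 42.5% of the counts of the 50 genes in hippocampus (33.1% to 58.6%) and 21.1% in cortex (13.7% to 29.1%).

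Predicted genes stood beside it. Gm33888 (chr16:89129257-89133082) ran from 14.66 to 15.84 log2 CPM in cortex (median 15.22) and from 16.39 to 17.24 in hippocampus (median 17.01), and was 3.32-fold higher in hippocampus (log2 1.73, SE 0.10, edgeR adjusted p = 1.64e-21). Gm34733, on the same chromosome at chr16:89226811-89227103, ran from 12.41 to 13.42 in cortex (median 12.81) and from 13.85 to 14.94 in hippocampus (median 14.50), a log2 difference of 1.54 (SE 0.10). The regions did not overlap in either gene. Gm46840, a long non-coding RNA, was the third predicted gene of the group, at a log2 of 1.43 (SE 0.10), again without overlap.

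Among the annotated protein-coding genes with the large rise, Erlin2 and Xrn1 act in protein and RNA turnover. Erlin2, an endoplasmic reticulum protein that marks inositol trisphosphate receptors for degradation, ran from 12.28 to 13.40 log2 CPM in cortex (median 12.98) and from 14.21 to 14.85 in hippocampus (median 14.45). It was 2.97-fold higher (log2 1.57, SE 0.10, edgeR adjusted p = 6.71e-21). Xrn1, the main cytoplasmic 5′ to 3′ exoribonuclease, ran from 12.41 to 13.71 in cortex (median 13.08) and from 13.87 to 15.14 in hippocampus (median 14.60), a log2 difference of 1.47 (SE 0.10). Both genes were separated without overlap. Eri3, another exoribonuclease family member, rose by the same log2 of 1.47 with a wider error (SE 0.17), and its libraries overlapped between regions.

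Rhov, a small GTPase, ran from 10.89 to 12.75 log2 CPM in cortex (median 12.07) and from 12.86 to 14.10 in hippocampus (median 13.60), without overlap (log2 1.53, SE 0.14). Tmed2, a carrier of cargo between endoplasmic reticulum and Golgi, rose by 1.36 (SE 0.16), and Txlnb, a taxilin best known from muscle, by 1.35 (SE 0.13).

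Several genes of the group are known from development or from sensory organs and not as markers of either brain region. Hmga2, a chromatin protein of embryonic tissue, rose by a log2 of 1.41 (SE 0.11). Ripply2, a co-repressor in the segmentation of the embryo, rose by 1.41 (SE 0.12) without overlap of the regions. Inhbb, which encodes the beta B subunit of activin and inhibin, rose by 1.37 (SE 0.17). The olfactory receptor gene Olfr655 rose by 1.45 (SE 0.15) and the vomeronasal receptor gene Vmn1r189 by 1.34 (SE 0.12); Vmn1r189 was separated without overlap. Etd rose by 1.36 (SE 0.21) and was the only one of the 16 with a hippocampus library below the cortex mean, 15 of 16 libraries being above it. Over the whole group the edgeR adjusted p was at most 1.1e-07.

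The 17th gene called higher, Elof1, a transcription elongation factor, had a smaller difference of 0.70 (SE 0.19, edgeR adjusted p = 0.00114) and 11 of 16 hippocampus libraries above the cortex mean. Its sign turned under 3 other scalings, with -0.07 on summed counts without TMM, -0.18 with TMM over all genes and -0.22 against the negative probe. The call was also lost without APOE4 DD cortex 7, APOE3 DD cortex 2, APOE3 DD cortex 6 or APOE3 DD hippocampus 4, at 0.33 to 0.38 (adjusted p = 0.053 to 0.12 in edgeR).

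Chic2, a membrane-associated protein with a cysteine-rich hydrophobic domain, fell furthest. Its counts ran from 35 to 328 in cortex (median 138) and from 12 to 77 in hippocampus (median 30.5). In log2 CPM, APOE3 cortex ran from 14.58 to 15.39 and APOE3 hippocampus from 13.56 to 14.95, while APOE4 cortex ran from 13.94 to 14.93 and APOE4 hippocampus from 12.87 to 13.63. The regions overlapped in APOE3 and not in APOE4, and all 16 hippocampus libraries lay below the cortex mean of their genotype. The difference was 1.98-fold (log2 -0.99, SE 0.10, edgeR adjusted p = 2.81e-12).

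Cd99, a cell surface glycoprotein, ran from 13.91 to 15.07 log2 CPM in cortex (median 14.53) and from 13.11 to 14.85 in hippocampus (median 13.80), a log2 difference of -0.74 (SE 0.11). Gm52523, a predicted gene at chr2:112228823-112240063, ran from 15.23 to 16.19 in cortex (median 15.99) and from 14.91 to 15.56 in hippocampus (median 15.20), a difference of -0.71 (SE 0.09). Both fell, and their libraries overlapped between the regions. Gm10265, the gene with the second highest mean count, ran from 16.25 to 17.19 in cortex (median 16.82) and from 15.85 to 16.36 in hippocampus (median 16.19), a difference of -0.65 (SE 0.08, edgeR adjusted p = 3.48e-10). Within each genotype its regions did not overlap. Gm40755 ran from 12.70 to 13.86 in cortex (median 13.52) and from 10.82 to 13.87 in hippocampus (median 12.93), with the low end set by 1 APOE3 library (log2 -0.66, SE 0.14).

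Lig1, DNA ligase I of replication and excision repair, had counts of 1 to 51 in cortex (median 19) and 1 to 18 in hippocampus (median 3.5), with log2 CPM of 10.11 to 12.12 and 9.90 to 11.78. It fell by 0.68 on the log2 scale (SE 0.18, edgeR adjusted p = 0.000774), with wide overlap at these low counts. Tubg1, the gamma tubulin that seeds microtubules, fell by 0.64 (SE 0.18). Rrp36, a factor of ribosomal RNA processing, fell by 0.54 (SE 0.12), and Trir, a ribonuclease that interacts with telomerase RNA, by 0.52 (SE 0.10).

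Tysnd1, the protease that processes peroxisomal matrix proteins, fell by 0.44 (SE 0.08) and lay below the cortex mean in 16 of 16 hippocampus libraries. Fdx2, a mitochondrial ferredoxin of iron-sulfur cluster assembly, fell by 0.36 (SE 0.13), and Coa5, which helps to assemble cytochrome c oxidase, by 0.32 (SE 0.09). Of the mitochondrial genes that passed the test, Mtch2 was thus higher and Coa5 and Fdx2 lower.

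The remaining falls were Calm2, one of the calmodulin genes, at -0.41 (SE 0.18), 1110065P20Rik at -0.41 (SE 0.12), the histone gene H2aj at -0.39 (SE 0.18), Lrr1 at -0.31 (SE 0.10) and Ctxn1 at -0.24 (SE 0.11). Their adjusted p were 0.038 for Calm2, 0.0467 for H2aj and 0.0467 for Ctxn1 in edgeR, and these 3 calls were lost with 1 library left out. Calm2 lost it without APOE4 DD cortex 1 or 2 or APOE4 DD hippocampus 1, 2 or 7 (adjusted p up to 0.068), always at -0.36 or lower. H2aj lost it without any of 10 libraries, APOE4 DD cortex 1, 2, 4 or 5, APOE4 DD hippocampus 1, 4 or 6, APOE3 DD cortex 8 or 9, or APOE3 DD hippocampus 7 (up to 0.099). Ctxn1 lost it without any of 9, APOE4 DD cortex 4, APOE4 DD hippocampus 1, 2, 5, 6, 7 or 8, APOE3 DD cortex 3 or APOE3 DD hippocampus 7 (up to 0.097).

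The 16 genes that did not pass ran from 0.43 for Lmbr1 to -0.28 for Ubb. Olig2, the transcription factor of the oligodendrocyte lineage, was at 0.11 (SE 0.15, edgeR adjusted p = 0.482), and 9 of 16 hippocampus libraries were above the cortex mean. Rgs19 was at 0.40, Cyp2d12 at 0.39, Gimap4, an immune GTPase, at 0.22, the prion-like Sprn at -0.01 and Mplkip at -0.05. Marcks, Fam177a, Ccdc71l, AI413582, Zfp180, Pcbd2, Actb and Ptms lay between -0.13 and -0.25. Actb, the cytoplasmic actin often used as a reference, was at -0.20 (SE 0.19), with counts of 1 to 24 in cortex and 1 to 10 in hippocampus.

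**Figure D2:**
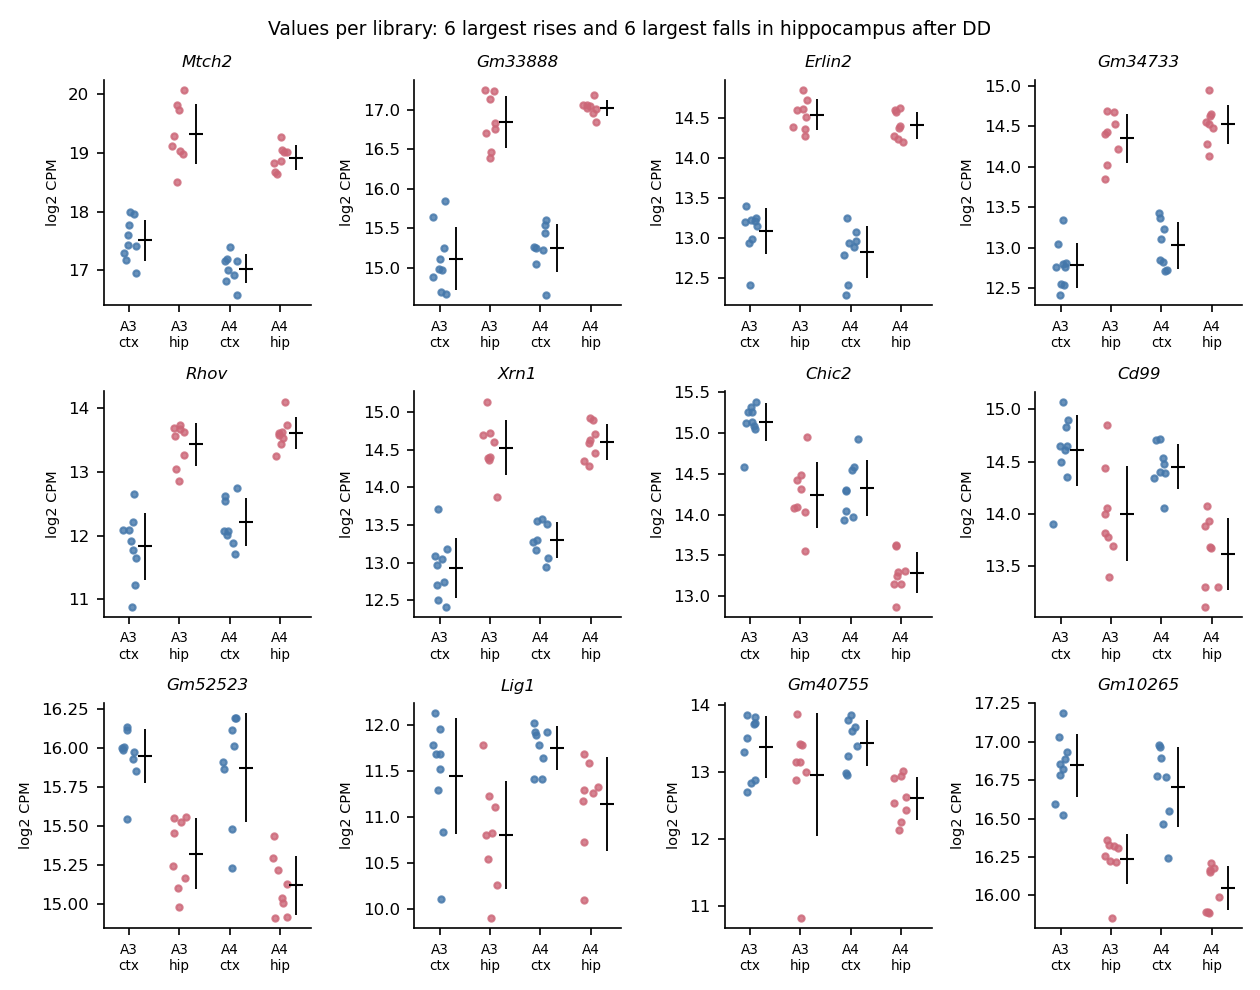
Log2 CPM of every DD library for the 6 genes with the largest rise and the 6 with the largest fall in hippocampus; A3 and A4 are APOE3 and APOE4, ctx is cortex (blue) and hip is hippocampus (red), and the black marks are the mean and 1 SD of the 9, 8, 8 and 8 libraries. The 6 rising genes show a gap between the regions, whereas the 6 falling genes overlap between regions across both genotypes.

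Where the line between higher and lower lies depended on the scaling. The median log2 difference of the 50 genes was -0.15 with TMM over the tested genes, the setting used above. It was lower by 0.22 with DESeq2, by 0.24 without Mtch2 in the scaling, by 0.29 with the upper quartile, by 0.78 on summed counts without TMM, by 0.90 with TMM over all genes and by 0.95 against the negative probe. The higher and lower calls were 17 and 17 with TMM, 17 and 22 with DESeq2, 17 and 26 without Mtch2, 17 and 27 with the upper quartile, 16 and 30 without TMM, 16 and 31 with TMM over all genes, and 11 and 31 against the negative probe. The 16 genes with the large rise were positive in all 7 of these scalings, and the 17 falling genes were negative and called in all 7. Without the filter on low counts most of the 16 lost the call, as given with the fit over all genes. Against the negative probe the 3.64-fold rise of Mtch2 became 1.82-fold and the 1.98-fold fall of Chic2 became 4.03-fold. The TMM factors of the setting used above also separated the regions. They ran from 0.54 to 0.89 in hippocampus libraries and from 1.10 to 1.51 in cortex libraries. Overlap between regions in the log2 CPM of single genes was judged in that setting only.

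Relative to the median gene of each setting these values moved little. Mtch2 lay between 1.94 and 2.01 above that median on the log2 scale, Gm33888 between 1.83 and 1.90, Vmn1r189 between 1.46 and 1.51, Gm10265 between 0.49 and 0.57 below it, and Chic2 between 0.84 and 0.92 below it. Mplkip moved more, from 0.10 above the median with TMM to 0.25 below it in another setting.

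**Figure D3:**
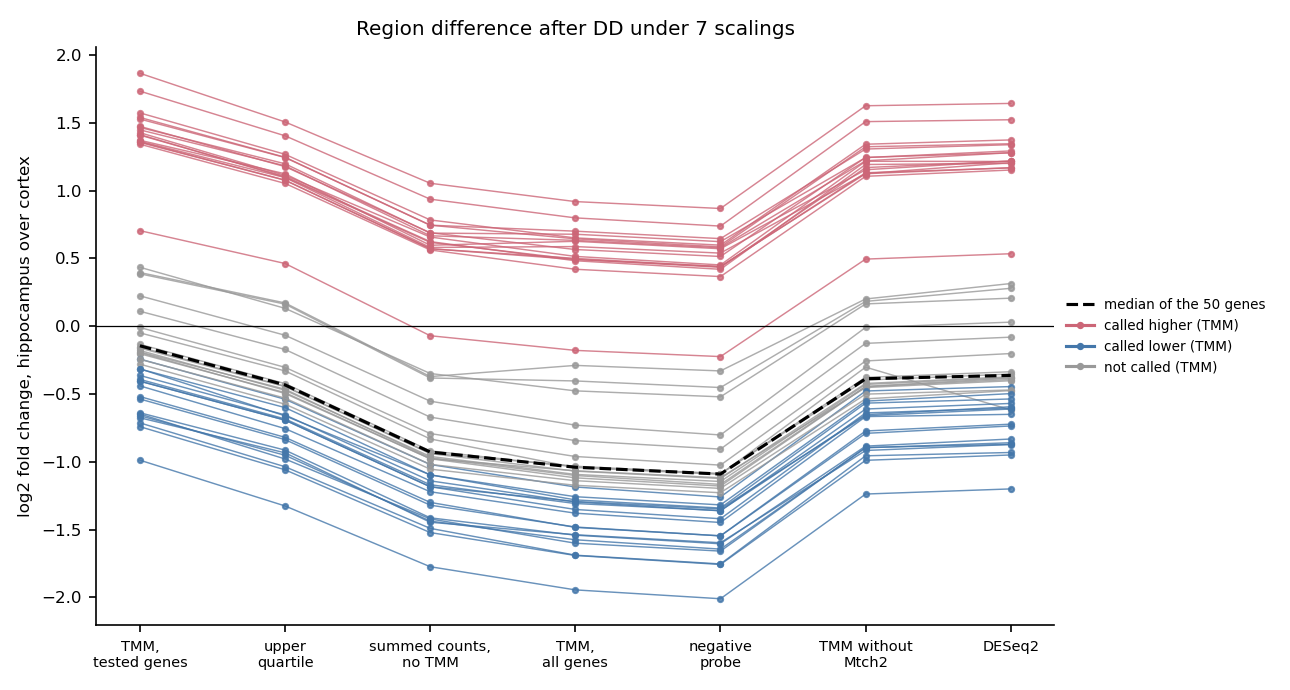
Each line is 1 of the 50 genes, and the vertical axis is its log2 fold change of hippocampus over cortex after DD under the 7 scalings named on the horizontal axis; the dashed line is the median of the genes. The lines shift largely in parallel, and the median moves from -0.15 with TMM over tested genes to -1.09 with the negative probe, and the 16 genes at the top remain above 0.

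A ratio within a library is untouched by any scaling. Mtch2 counts divided by Gm10265 counts ran from 0.764 to 2.70 in cortex (median 1.41, mean 1.49 ± 0.48, SD, n = 17) and from 4.91 to 14.0 in hippocampus (median 8.14, mean 8.22 ± 2.44, SD, n = 16). No library of one region fell within the range of the other. The log2 ratio was 2.49 higher in hippocampus, a 5.60-fold difference (permutation p = 1e-05, two-sided, the smallest that 100000 resamples can give). It was 2.42 higher in APOE3 libraries alone and 2.55 higher in APOE4 libraries alone (exact permutation p = 4.11e-05 and 0.000155). These genes were picked for this ratio after their values were seen.

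**Figure D4:**
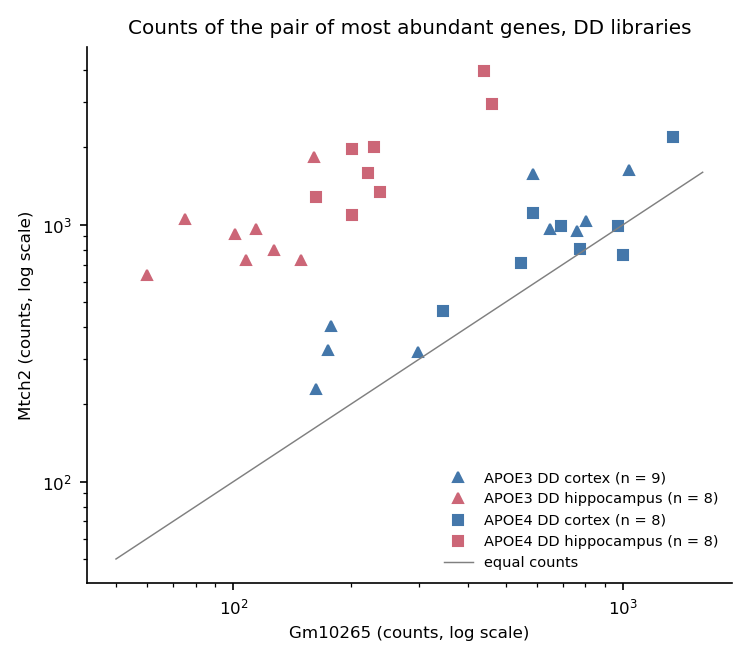
Counts of Mtch2 (vertical, log scale) against Gm10265 (horizontal, log scale) in the 33 DD libraries, triangles for APOE3 and squares for APOE4, with a grey line at equal counts. Hippocampus libraries (red) have ratios of 4.91 or more and cortex libraries (blue) of 2.70 or less, at every depth.

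Within the APOE3 plate 30 genes were called (60%, 19 higher and 11 lower), and within the APOE4 plate 33 (66%, 18 higher and 15 lower). In both, 28 genes were called with the same sign, and 34 of the 34 genes called overall had the same sign in both genotypes. Mtch2 differed by 1.85 (SE 0.17) in APOE3 and 1.88 (SE 0.18) in APOE4, and Chic2 by -0.90 (SE 0.15) and -1.07 (SE 0.15). The test of the difference between genotypes called 0 genes (edgeR interaction), with 3 at an unadjusted p under 0.05. These were Inhbb, at 2.09 (SE 0.29) in APOE3 and 1.05 (SE 0.19) in APOE4, Rgs19, at 1.40 (SE 0.42) and 0.05 (SE 0.25), and Cyp2d12, at 1.05 (SE 0.37) and 0.14 (SE 0.23). Their adjusted interaction p were 0.16, 0.17 and 0.66.

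Libraries that follow each other in the order of wells on a plate formed 8 stretches in the DD libraries, each holding both regions. Some wells between them hold no library of the study. In 8 of 8 stretches hippocampus was higher for 16 genes called higher and lower for 11 genes called lower. An exact sign-flip permutation test over the 8 stretches, whose smallest p is 0.00781, gave an adjusted p under 0.05 for 29 genes, all among the 34 called. The group of 16 genes, picked from these same libraries, was thus higher in hippocampus in each stretch on both plates.

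The same comparison in vehicle mice called 36 of the 50 genes (72%), 18 higher and 18 lower, in a fit of 65 DD and vehicle libraries. In that fit Mtch2 differed by 1.64 after DD and by 1.35 (SE 0.15) in vehicle, Gm33888 by 1.51 and 1.29 (SE 0.13), Inhbb by 1.35 and 0.87 (SE 0.18), and Chic2 by -1.20 and -1.17 (SE 0.13). All of these are log2 differences of hippocampus over cortex. The region difference after DD minus that in vehicle was called for 0 genes (edgeR interaction, 1 at an unadjusted p under 0.05). For Mtch2 it was 0.30 (SE 0.21, adjusted p = 0.89) and for Inhbb 0.48 (SE 0.23, adjusted p = 0.89). The single gene was Mplkip, at -0.41 after DD and 1.73 (SE 0.57) in vehicle. Its difference of -2.13 (SE 0.75, adjusted p = 0.28) was called with TMM over all genes, against the negative probe and with a minimum count of 5, a setting that tested 156 genes and called 88 of them between regions after DD (56.4%). The library APOE3 DD cortex 2 stood far above its group for Mplkip, at 15.06 log2 CPM against 11.56 for the nearest library. In the fit of DD libraries Mplkip was at -0.05 (SE 0.33), and at -0.49 to 0.04 with 1 library left out. Over the 50 genes the median size of the difference between DD and vehicle was 0.14, against a median SE of 0.23. The region differences of DD and vehicle correlated with r = 0.913 across genes, which share probes and scaling and are not independent.

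After DC 35 genes were called (70%, 17 higher and 18 lower), in a fit of 65 DD and DC libraries. The region difference after DD minus that after DC was called for 1 gene (2%), Lig1, with 3 genes at an unadjusted p under 0.05. In that fit Lig1 was at -1.07 after DD and at 0.05 after DC, a difference of -1.12 (SE 0.31, edgeR adjusted p = 0.0289). The call was lost under 8 of the other settings, among them a minimum count of 5 and the negative probe as scale, and Lig1 had a median of 3.5 counts in DD hippocampus. Mtch2 was at 1.48 after DD and 1.21 after DC (difference 0.27, SE 0.26), and Chic2 at -1.37 and -1.56 (difference 0.19, SE 0.18). Across the genes the region differences of DD and DC correlated with r = 0.920.

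**Figure D5:**
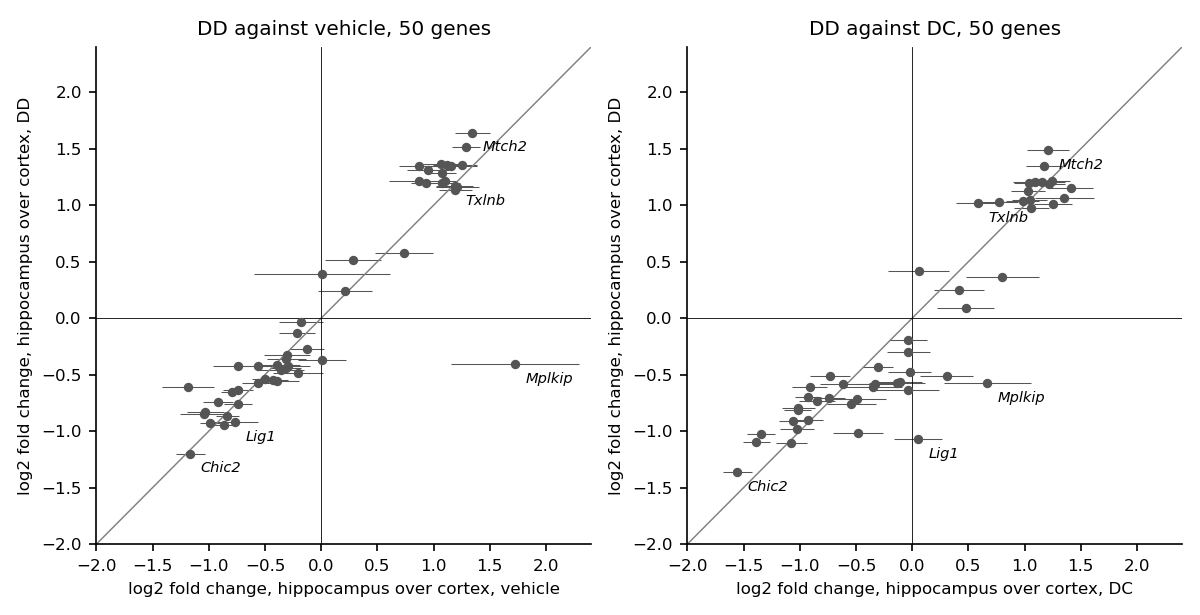
Log2 fold change of hippocampus over cortex after DD (vertical) against the same in vehicle (left) and after DC (right) for the 50 genes; bars are 1 SE of the horizontal value and the grey line marks equality. Most genes lie along the line, Mplkip lies at 1.73 in vehicle and -0.41 after DD, and Lig1 at 0.05 after DC and -1.07 after DD. For Mplkip the library APOE3 DD cortex 2 stood far above its group. In the fit of DD libraries Mplkip stayed at -0.49 to 0.04 with 1 library left out.

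The topoisomerases, most tubulins and microtubule proteins, and the response genes of a DNA-damaging treatment stood near the background in both regions. Of 299 genes in 24 lists of cell types and pathways, 7 exceeded 2 times the negative probe and 2 entered the test, Olig2 and Tubg1, of which Tubg1 fell. Fitted over all 19962 genes without a filter, on the full totals, 38 genes were called (0.19%), 8 of them higher (0.0401%) and 30 lower (0.15%), 2 of them list members. Of the 16 genes with the large rise, 2 were called in that fit, Mtch2 and Gm33888, and 14 were not, at log2 differences of 0.41 to 0.70 (edgeR adjusted p = 0.39 to 1.00); the 17 falling genes were called in it too. In the lists, 18 of the 299 had an unadjusted p under 0.05 (6.02%, against 4.13% of all genes). Values in the next paragraph are from that fit, in which levels are multiples of the negative probe.

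The 6 topoisomerases, among them the type II enzymes that doxorubicin poisons, had a median level of 1.09 in both regions and 0 calls. Of 24 tubulins and microtubule proteins, listed because docetaxel stabilises microtubules, 1 was called lower and 0 higher. Tubg1 stood at 7.54 in cortex and 2.75 in hippocampus (log2 -1.55, SE 0.32), and Stmn1, which binds free tubulin, at 2.17 and 1.16 (log2 -0.86, SE 0.25, not called). The median of the list was -0.10, beside 0.03 for all genes. Of 22 genes of the p53 and DNA damage response, 0 were called and the median level was 1.07 in cortex and 1.12 in hippocampus. Cdkn1a, the p21 cell cycle inhibitor that p53 induces, stood at 0.91 and 1.44.

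Of 17 glycolysis genes, 1 was called lower and 6 had a positive difference. Aldoa, the aldolase of muscle and brain, stood at 3.06 and 1.13 in the same order (log2 -1.40, SE 0.29, edgeR adjusted p = 0.00259). Pkm, pyruvate kinase, stood at 2.72 and 1.56 (log2 -0.77, SE 0.27), and Gapdh at 1.55 and 0.85 (log2 -0.79, SE 0.24), neither called. Of 14 genes of synaptic release, Cplx1, a complexin that clamps vesicle fusion, was the only one above 2 times the negative probe, at 2.38 and 1.64, and 0 were called.

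Cell type markers gave 0 calls in 15 lists. The oligodendrocyte list had 1 member above the limit, Olig2, while Mbp, the main myelin protein, stood at 0.94 in cortex and 1.10 in hippocampus. Astrocyte markers had medians of 1.05 and 1.20, with Gfap at 1.34 and 1.16 and Apoe at 1.02 and 0.99. Microglial markers had medians of 1.06 and 1.13, with Aif1 at 0.87 and 1.36. Markers of 2 neighbouring regions, thalamus and striatum, had medians of 0.96 and 1.06 and of 1.06 and 1.10. Some lists leaned to one side in the fit without a filter. Of 16 excitatory neuron markers 2 had a positive difference (median log2 -0.16), and of 9 endothelial markers 1 (median -0.34). Of 8 thalamus markers all 8 were positive (median 0.18), beside 10804 of all 19962 genes (median 0.03). No marker was called at this depth. Whether cell makeup differed between the captured regions, and its part in the results for the 34 genes, was not tested.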

How the data were processed

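The members and gene lists were chosen with earlier results of these data known. The table deposited by the authors holds expected counts for each probe target, not scaled to depth; the table has 19963 rows, 19962 genes and 1 negative probe, and the lowest value was 1 in 94 of 97 libraries. Per the submitters' processing notes the build is mm10; the counting software is not given in the sources used here. How regions were chosen, and the animal of each region, are not given in the labels.

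Values were rounded and fitted with edgeR 4.0.16 in R 4.3.3 (TMM over the tested genes, filterByExpr with a minimum count of 10 over the 4 DD groups, genotype plus region, quasi-likelihood F test, Benjamini-Hochberg over 50 genes, threshold 0.05). SE were derived from the F statistic, and log2 CPM used a prior count of 2. Interactions with vehicle or DC used group means on the same genes. Libraries are the unit; p-values measure their spread, which may be partly technical. Single values were tested by permutation within genotype (100000 resamples). On simulated counts with a fold of 2, the fit recovered 19 of 19 changed genes and called 0 of 30 unchanged ones. The simulation had rises and falls in equal number, a fixed dispersion and libraries independent of each other. The falls called in the data were smaller than that fold. The simulated counts therefore do not measure the error rate in the data.

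All genes that passed were named, as were the genes that did not pass; the 6 largest changes in each direction were given by library. In a list, tested members and up to 4 of the highest level in either region were named, and Apoe, Gfap, Aif1, Mbp and Prox1 whatever their level. A list member that the rule names is not reported here; counts include it. Of the 50 symbols, 49 matched RefSeq. The alternatives were other scalings and filters, DESeq2 1.42.0, runs or stretches of wells as block or summed, background subtraction, and leaving out libraries. There were 0 identical pairs of libraries.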

Additional observations from a re-analysis of the deposited data

Results flagged for a closer look

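Among 212 groups of values, 22 held a library that stood far from the others of its group (10.4%); chance alone gives about 1 in 20. Values are log2 CPM. The most distant was Mplkip in APOE3 DD cortex 2, at 15.06 with 44 counts, against 11.56 for the nearest library. Low single libraries were Ripply2 and Txlnb in APOE3 DD cortex 3 (10.93 with 3 counts, and 9.90 with 1 count), Fam177a and Hmga2 in APOE3 DD hippocampus 1 (10.27 and 14.16), Ccdc71l and Fdx2 in APOE4 DD hippocampus 2 (9.69 and 11.74), H2aj in APOE3 DD hippocampus 5 (10.55), Gm10265 in APOE3 DD hippocampus 3 (15.85) and Gm40755 in APOE3 DD hippocampus 7 (10.82 with 1 count). Also low were Lrr1 in APOE4 DD hippocampus 1 (13.02), Erlin2 in APOE3 DD cortex 6 (12.41), Actb in APOE3 DD cortex 2 (10.25), Ubb and Chic2 in APOE3 DD cortex 1 (10.16 and 14.58), Gm52523 in APOE3 DD cortex 9 (15.54), AI413582 in APOE4 DD cortex 3 (11.43), Ubb in APOE4 DD cortex 4 (10.38), H2aj in APOE4 DD cortex 6 (10.72) and Vmn1r189 in APOE4 DD cortex 7 (11.98). High ones were Etd in APOE4 DD cortex 2 (12.15) and Txlnb in APOE4 DD hippocampus 4 (13.65).

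The region difference of Lig1 differed between DD and DC by -1.12 on the log2 scale, by an interaction test in edgeR.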

How the results depend on the processing

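Against 34 calls among 50 genes, a minimum count of 5 gave 88 of 156 (44 higher and 44 lower), summed runs of wells 73 of 122, and stretch sums with stretch as block 77. Within APOE3, 30 calls became 46 without TMM, 68 with a minimum count of 5 and 54 with summed runs; within APOE4, 33 became 58 and 52 in the last pair of these settings. DD minus vehicle had 1 call with TMM over all genes, against the negative probe and with a minimum count of 5. DD minus DC had 0 with TMM over all genes, against the negative probe, without Mtch2 in the scaling, with a minimum count of 5, with 1 or the negative probe subtracted, without libraries whose negative probe was 5 or more, and with summed runs. Leaving out each library gave 32 to 43 calls (16 to 20 higher, 14 to 27 lower); without APOE4 DD cortex 7, APOE3 DD cortex 2 or APOE3 DD hippocampus 4 there were 27 lower calls, in place of 17. It gave 28 to 39 calls in APOE3, 28 to 41 in APOE4 and 0 to 2 in the genotype interaction. Without the 2 APOE3 DD hippocampus libraries of lowest TMM factor there were 17 higher and 30 lower, and without libraries of high negative probe 16 and 26; the cause was not tested. Under summed counts, TMM over all genes and the negative probe, in that order, signs turned for Elof1 (-0.071, -0.18 and -0.22), Lmbr1 (-0.35, -0.48 and -0.52), Rgs19 (-0.37, -0.29 and -0.33), Cyp2d12 (-0.38, -0.40 and -0.45), Gimap4 (-0.55, -0.73 and -0.80) and Olig2 (-0.67, -0.84 and -0.91). The same 6 genes were also below 0 without the filter (Elof1 at -0.19), and all but Elof1 with a minimum count of 5 (Olig2 at -0.40). Gimap4 and Olig2, which were near 0, turned in several further settings. Cortex and hippocampus of one stretch deviated together with a median r of 0.313 (lowest 0.00696, 8 pairs) against -0.136 for other pairs; with stretch as block 36 genes were called, 34 of them the same. No paired analysis was possible because of missing replicate numbers and animals in the labels, other than these fits by position on the plate.

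These libraries limit the comparison to few genes. The labels do not tie regions to animals, genotype and plate cannot be told apart, and a value of 1 can stand for no count.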

Other observations

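A lower limit on counts brought in 106 further genes, closer to the background. Among them Aldoa fell by 1.05 on the log2 scale in hippocampus (SE 0.23, edgeR adjusted p = 4.59e-05), and Nemp2, a nuclear envelope protein, by 1.06 (SE 0.21). Atp6v1g2, a neuronal subunit of the vacuolar proton pump, fell by 0.72 (SE 0.25), Sptan1, the spectrin of the neuronal membrane skeleton, by 0.60 (SE 0.25) and Pcsk1, a prohormone convertase, by 0.45 (SE 0.18). Higher in hippocampus were Slc25a11, the mitochondrial oxoglutarate carrier, at 0.96 (SE 0.23), Gcsh, a subunit of the mitochondrial glycine cleavage system, at 0.63 (SE 0.18), and the receptor tyrosine kinase gene Epha4 at 0.61 (SE 0.26). All of these had adjusted p under 0.05, and were named after their values were seen; p-values are too small if some animals gave more than 1 region.

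In the fit without a filter, genes with 1 extreme library were also called. Il27 had a highest count of 870 in cortex and a median of 2, and Fbf1 a highest count of 117 in hippocampus and a median of 2.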
